A study of Mus musculus with 9 samples.

Results

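The genes described here encode the hypoxia-inducible factors (HIFs) and the proteins that make them respond to oxygen, in mouse embryonic stem cells (mESC) kept for 24 h in 3 media. The members were selected by gene name alone, and all 10 names were found among the 29069 genes of the table: the alpha subunits Hif1a, Epas1 and Hif3a, the partners Arnt and Arnt2, the ubiquitin ligase subunit Vhl, and the hydroxylases Hif1an, Egln1, Egln2 and Egln3. The family was proposed after the values of Egln3 and of hypoxia-response genes in these samples had been seen. Egln3 is therefore given with its values and no test, and every count of called members below is over the other 9. Egln1, itself a known HIF target, may have been among the genes seen, so its p-values below are not independent of that choice.

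A HIF is a pair made of an alpha subunit and ARNT, both bHLH-PAS proteins, which together bind DNA and activate genes of glycolysis, angiogenesis and iron handling. When oxygen is present, the prolyl hydroxylases EGLN1, EGLN2 and EGLN3 (also called PHD proteins) modify the alpha subunit, VHL then binds it, and it is degraded, while the asparaginyl hydroxylase HIF1AN (also called FIH) blocks its contact with coactivators. These enzymes need iron and 2-oxoglutarate as well as oxygen, and the genes for EGLN1 and EGLN3 are themselves known HIF targets. Most of this control acts on the protein, which RNA-seq does not measure.

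All samples were of the line mES-D3, a single line adapted to growth without feeder cells and used at passages 5 to 8, with 1 dish and 1 library per sample and 3 samples per medium. Ground state medium (GS, labelled ctrl) was N2B27 with the MEK inhibitor PD0325901 at 1 µM, the GSK-3 inhibitor CHIR99021 at 3 µM and LIF at 20 ng/mL. Differentiation medium (DM, labelled rel) was DMEM with 10% fetal bovine serum and none of these agents. The third medium (NO, labelled det) was DM with 250 µM DETA/NO, a slow donor of nitric oxide. The DM and GS comparison follows release from the ground state, and the NO and DM comparison isolates the added donor. GS and DM differ in base medium, serum, inhibitors and LIF at once, whose effects cannot be told apart. The oxygen level of the cultures was not given in the sources used here.

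Values are normalised read counts as deposited, with totals between 18290445 and 20508679 per sample. The spacing of low values gave an estimate of 14307523 to 27061091 assigned reads per sample. The NO samples lay further apart than those of the other media, with scores on the first principal component of 25.9, 131.2 and 67.1 for replicates 1 to 3, against -49.1 to -26 over GS and DM. The 10 markers of pluripotent cells were all detected in each medium and summed to 87614 to 92098 in GS, 86535 to 96682 in DM and 52594 to 87966 in NO. The sum in NO was highest in replicate 1 and lowest in replicate 2. Pou5f1, for example, had 8983, 4276 and 9978 in NO replicates 1 to 3. The 8 markers of primitive endoderm summed to 7550 to 8354 in GS, 2929 to 3607 in DM and 3583 to 4602 in NO, most of it Lama1, with means of 7824, 3224 and 3723. Gene by gene, 5 of the 6 endoderm markers tested had a positive log2 fold change in NO against GS (median 0.89) and 6 of 6 in NO against DM (median 1.22). Only Gata6 was called higher in NO by limma, from means of 10.3 in GS and 8 in DM to 115, with 20, 234 and 90 in NO replicates 1 to 3. The 8 trophoblast markers summed to 1571 to 1595 in GS, 955 to 1132 in DM and 1255 to 2326 in NO. In NO against DM 3 of 8 were called higher and 0 lower, where 6.78% of all tested genes were higher and 1.77% lower. In DM against GS 0 were higher and 3 lower, beside 2.94% and 1.27% of all genes. In NO against GS 2 were higher and 2 lower, beside 10.1% and 1.64%, and the median log2 fold change was 0.056. Feeder fibroblast markers, also 8, summed to 318 to 496 in GS, 412 to 447 in DM and 381 to 406 in NO, and 1 of them was at 0 in all DM samples. Several of these marker levels differed between the media, or between replicates within NO, and their part in the results below was not tested. In such bulk samples fewer cells expressing a gene and less RNA per cell cannot be told apart.

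Genes were tested with limma on log2(normalised count + 1) over the 18156 genes with a mean above 5, and fold changes are on that scale. A gene was taken as changed at a Benjamini-Hochberg adjusted p under 0.05, over all those genes, and at least a 2-fold difference. In DM against GS, 1 of the 9 members (Epas1) was higher and 0 were lower, where 2.94% of all tested genes were higher and 1.27% lower. At adjusted p alone the count stayed at 1, against 6.69% of all genes. In NO against GS, 1 member (Epas1) was higher and 1 (Egln1) was lower, where the shares over all genes were 10.1% and 1.64%. At adjusted p alone 3 members passed, Vhl being the third, against 20.0% of all genes. In NO against DM, 0 members were higher and 2 (Egln1 and Hif3a) were lower, where 6.78% of all genes were higher and 1.77% lower. At adjusted p alone 4 passed, all lower in NO and now including Epas1 and Arnt, against 14.2% of all genes. The median log2 fold change of the 9 members was 0.18 in DM against GS, -0.22 in NO against GS and -0.49 in NO against DM, where the medians over all tested genes were -7e-04, -0.016 and 0.001. The comparisons share samples, so their counts are not independent of each other.

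**Figure D1:**
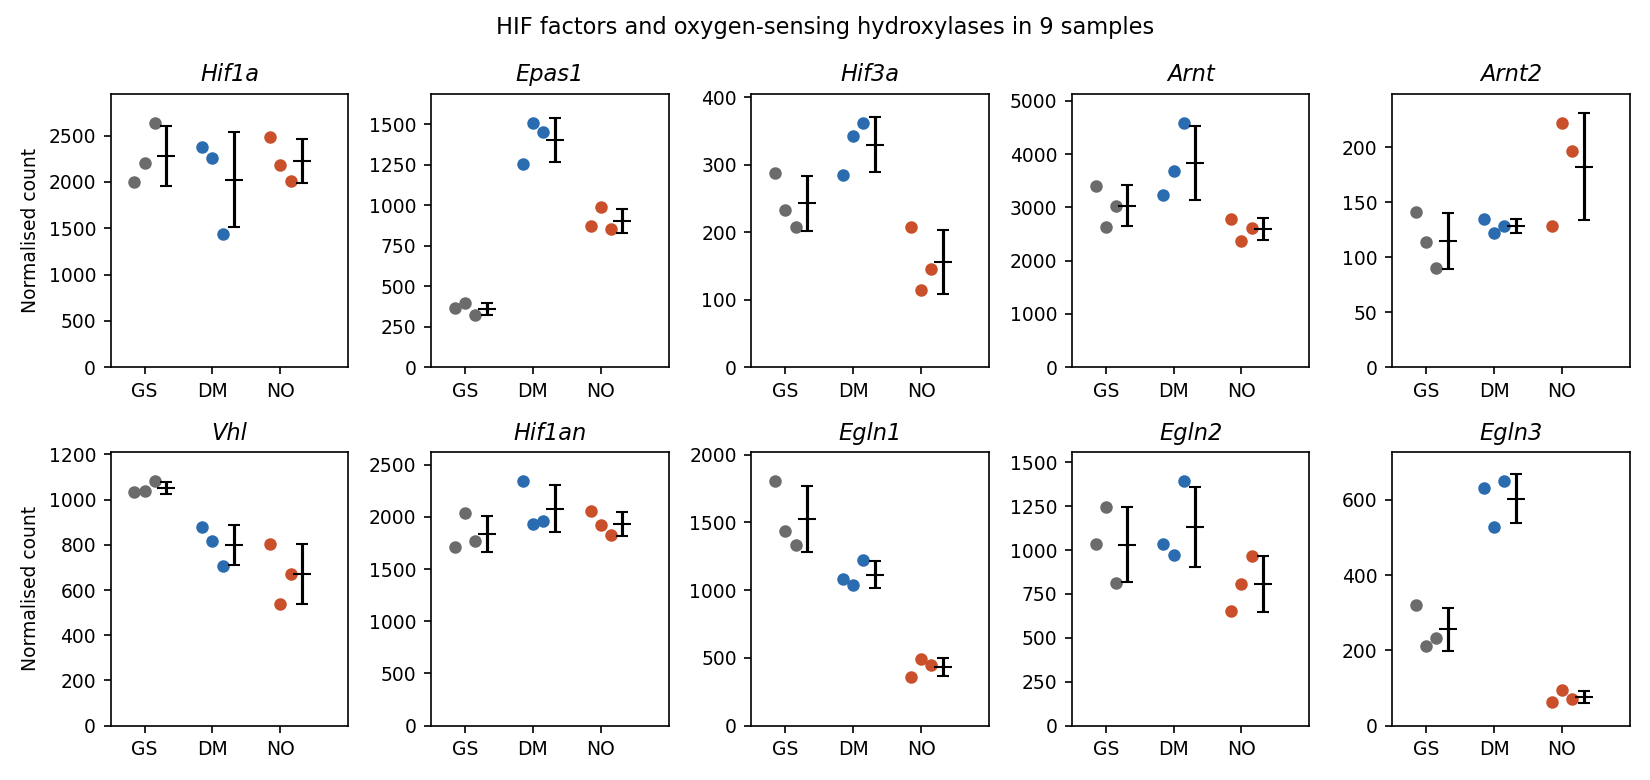
Normalised count (vertical axis, from 0) of each of the 10 members in the 3 samples of GS, DM and NO (points, replicates 1 to 3 from left to right), with the mean and SD as a bar. Epas1 was lowest in every GS sample, and Egln1 and Egln3 were lowest in every NO sample, between 360 and 492 and between 64 and 95 normalised counts.

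**Figure D2:**
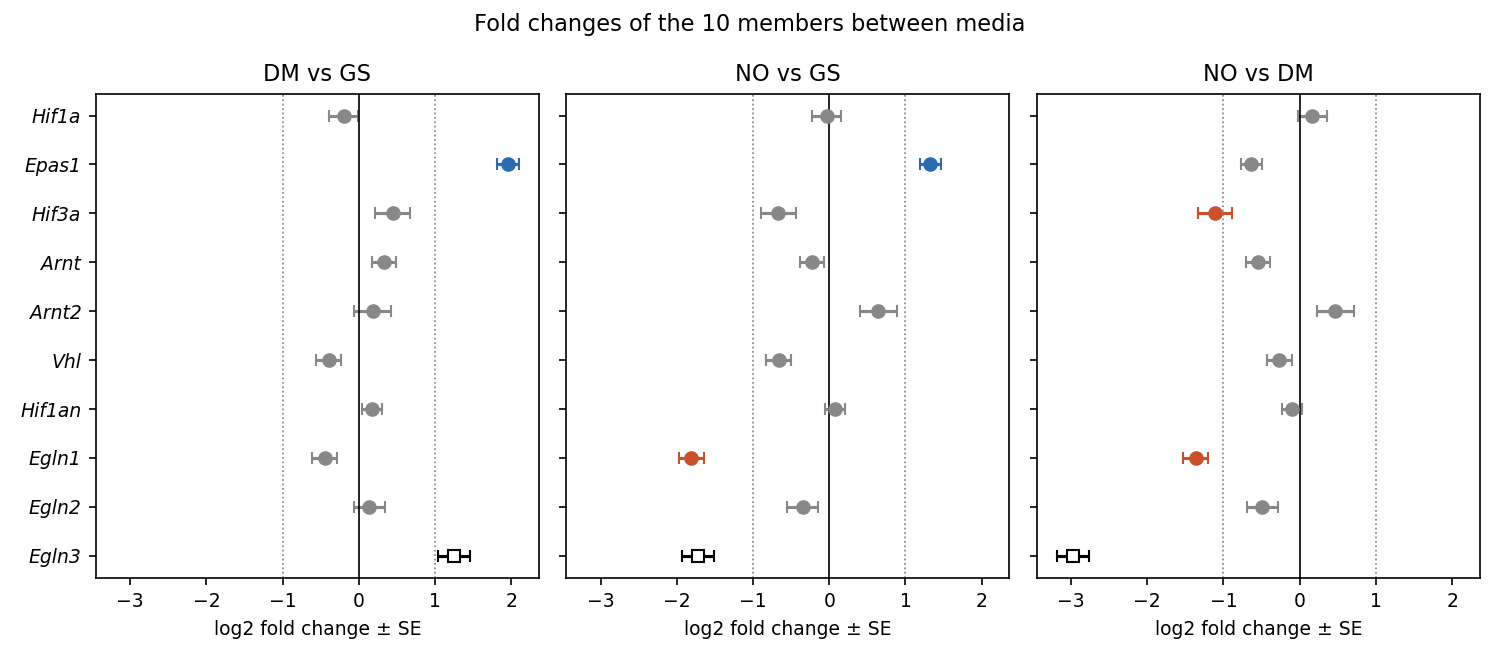
Log2 fold change with its standard error (horizontal axis) of the 10 members in the 3 comparisons; blue marks members that were higher and orange those that were lower by the test, grey those that were not called, and the open square Egln3, which was not tested. Dotted lines mark a 2-fold difference, which Epas1 passed upward in DM and NO against GS and Egln1 passed downward in NO against both.

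Of the alpha subunits, Epas1, which encodes HIF-2 alpha, changed with the medium while Hif1a was not called in any comparison. Epas1 lies at chr17:86753700-86833410 on the plus strand of GRCm38. GS samples held 364, 395 and 323 normalised counts of Epas1, DM samples 1251, 1508 and 1452, and NO samples 870, 988 and 853. The 3 media did not overlap, with DM highest and NO between DM and GS. Epas1 was 3.88-fold higher in DM than in GS (log2 fold change 1.96 ± 0.14 SE, adjusted p = 2.84e-05 by limma) and higher in NO than in GS (1.32 ± 0.14, adjusted p = 0.000425). NO against DM gave -0.63 ± 0.14 (adjusted p = 0.0150), under the 2-fold minimum. Without DM replicate 2 the adjusted p of that difference was 0.0606, and without NO replicate 3 it was 0.0585.

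Hif1a, for HIF-1 alpha, lies at chr12:73901375-73947530 on the plus strand. The GS samples had 2005, 2207 and 2639 normalised counts, those in DM 2376, 2263 and 1440, and those in NO 2486, 2185 and 2008. All 3 media overlapped, and DM replicate 3 was the lowest sample. The log2 fold changes were -0.20 in DM against GS (95% interval -0.62 to 0.22, adjusted p = 0.629 by limma), -0.03 in NO against GS (-0.45 to 0.39, adjusted p = 0.927) and 0.16 in NO against DM (-0.26 to 0.59, adjusted p = 0.600). The sign of each of these turned in at least 1 alternative analysis. Exons of Hif1a overlap those of the antisense gene Gm15283, which had a mean of 40.6 normalised counts, over 330 bp. If strand was not used, reads in the shared bases were ambiguous and left out of both genes.

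Hif3a, whose product has forms that restrain the other HIFs, lies at chr7:17031507-17062427 on the minus strand and was the lowest alpha subunit. Its normalised count in GS was 287, 233 and 208, that in DM 284, 343 and 362, and that in NO 207, 115 and 145. Every NO sample was below every DM and GS sample, by 1 normalised count at the nearest GS sample, while GS and DM overlapped. Hif3a was 2.16-fold lower in NO than in DM (-1.11 ± 0.23, adjusted p = 0.0108 by limma), and without NO replicate 2, the lowest sample, the difference was -0.92 (adjusted p = 0.0251), under 2-fold. NO against GS gave -0.67 (adjusted p = 0.0592) and DM against GS 0.45 (adjusted p = 0.308).

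Per kilobase of merged exon, which allows genes to be compared, the alpha subunits summed to 488 ± 44.8 (SD, n = 3) normalised counts per kb in GS, 644 ± 76.6 in DM and 562 ± 46.7 in NO. Hif1a made up 79.1% ± 3.89 of that sum in GS, 52.8% ± 8.35 in DM and 67.1% ± 2.0 in NO. For Epas1 the GS share was 13.4% ± 2.23, the DM share 39.4% ± 6.63 and the NO share 28.9% ± 2.94, with no overlap between media. Hif3a held 7.52% ± 1.90 in GS, 7.75% ± 1.73 in DM and 4.10% ± 1.02 in NO. DM replicate 3 had the lowest Hif1a share, 43.8%, and Epas1 exceeded Hif1a per kb there, at 259.75 against 244.23, but not with the longest transcript as length (263.2 against 304.8).

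**Figure D3:**
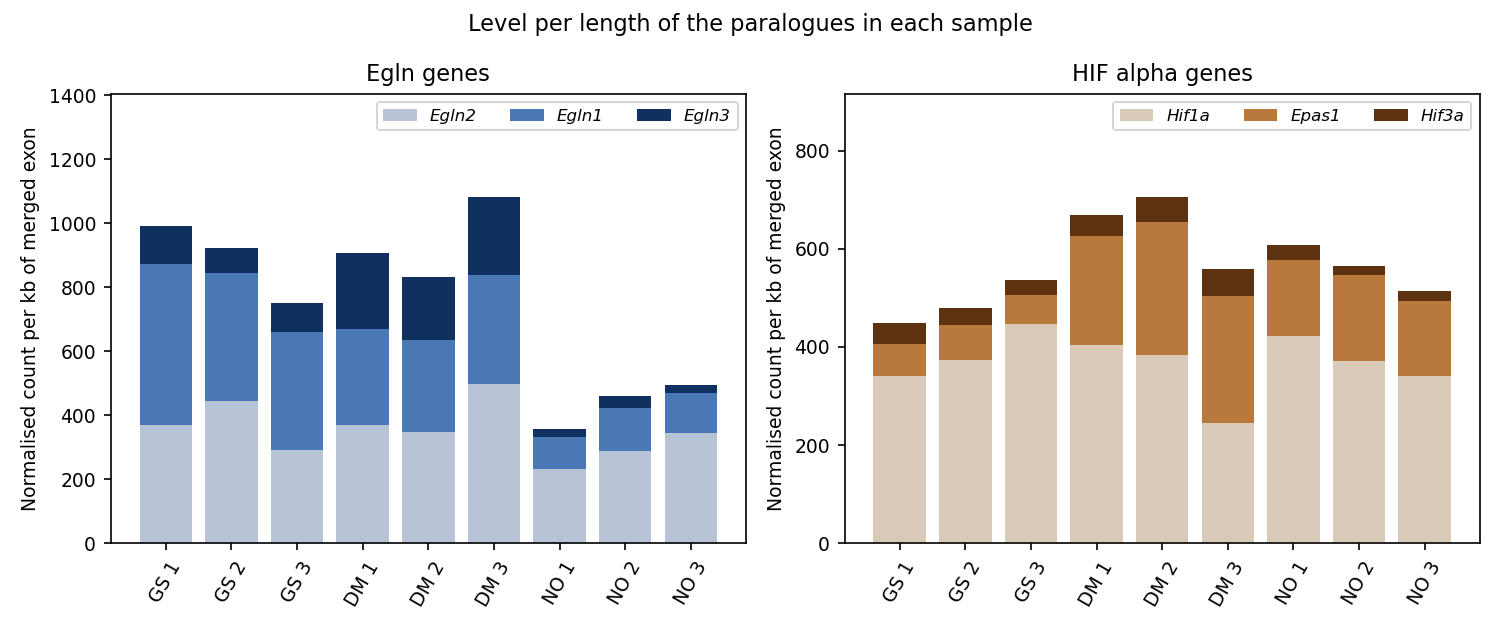
Normalised count per kb of merged exon (vertical axis, from 0) in each of the 9 samples, stacked for Egln1, Egln2 and Egln3 on the left and for Hif1a, Epas1 and Hif3a on the right. The Egln sum was between 356.4 and 495.9 in the NO samples and between 749.8 and 1081.2 in the others, and the Epas1 segment was widest in DM.

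Arnt, the common partner of the alpha subunits, lies at chr3:95434388-95497240 on the plus strand. Counts after normalisation were 3410, 2641 and 3035 for GS, 3231, 3679 and 4590 for DM, and 2783, 2370 and 2617 for NO. NO lay below DM in every sample and overlapped GS. The difference between NO and DM was -0.55 ± 0.16 (adjusted p = 0.0380 by limma), under 2-fold, and its adjusted p rose above 0.05 in 12 of 18 alternatives, up to 0.105. DM against GS gave 0.33 (adjusted p = 0.267) and NO against GS -0.22 (adjusted p = 0.345).

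Arnt2, a paralogue best known from neural tissue, lies at chr7:84246278-84410176 on the minus strand and was low. Normalised counts of 141, 114 and 90 were found for GS, 135, 122 and 128 for DM, and 128, 222 and 196 for NO. NO replicates 2 and 3 were above all other samples and NO replicate 1 was within them. No comparison was called, with 0.18 in DM against GS (adjusted p = 0.743 by limma), 0.64 in NO against GS (adjusted p = 0.0831) and 0.46 in NO against DM (adjusted p = 0.218). Arnt2 made up 3.81% ± 0.71 (SD, n = 3) of the summed per-kb level of the 2 partners in GS, 3.44% ± 0.68 in DM and 6.90% ± 2.18 in NO.

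Vhl, which encodes the subunit that recognises the hydroxylated alpha protein, lies at chr6:113623959-113631633 on the plus strand. GS samples held 1035, 1036 and 1081 normalised counts, DM samples 879, 816 and 706, and NO samples 805, 538 and 670. GS was above both other media in every sample, and DM and NO overlapped. NO against GS gave -0.67 ± 0.16 (adjusted p = 0.0143 by limma), under 2-fold, with an adjusted p of 0.0546 without GS replicate 3. DM against GS was -0.40 (adjusted p = 0.189) and NO against DM -0.27 (adjusted p = 0.283).

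Among the hydroxylases, Egln1 was lower in NO than in both other media, Egln3 was highest in DM and lowest in NO, and neither Egln2 nor Hif1an was called in any comparison. The bases before the start sites of the 3 Egln genes are shown because 2 of these genes were low in NO and the other was not called, and because HIFs bind a short core, ACGTG or GCGTG. The sequences are from RefSeq on GRCm38.p6, all on the minus strand and read 5′ to 3′ toward the gene, with the core on either strand in capitals. Egln1 is at chr8:124949325-124949504, cut where an annotated first exon begins, Egln3 at chr12:54203875-54204124 and Egln2 at chr7:27166803-27167052.
Egln1: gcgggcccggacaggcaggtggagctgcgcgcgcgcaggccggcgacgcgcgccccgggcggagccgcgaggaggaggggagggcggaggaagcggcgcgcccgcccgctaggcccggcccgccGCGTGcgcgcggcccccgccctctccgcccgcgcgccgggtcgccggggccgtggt
Egln3: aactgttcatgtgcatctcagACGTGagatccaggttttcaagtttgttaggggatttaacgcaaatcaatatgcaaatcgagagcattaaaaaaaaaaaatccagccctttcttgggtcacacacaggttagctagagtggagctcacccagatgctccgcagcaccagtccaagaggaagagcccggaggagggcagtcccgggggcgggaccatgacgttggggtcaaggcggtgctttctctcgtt
Egln2: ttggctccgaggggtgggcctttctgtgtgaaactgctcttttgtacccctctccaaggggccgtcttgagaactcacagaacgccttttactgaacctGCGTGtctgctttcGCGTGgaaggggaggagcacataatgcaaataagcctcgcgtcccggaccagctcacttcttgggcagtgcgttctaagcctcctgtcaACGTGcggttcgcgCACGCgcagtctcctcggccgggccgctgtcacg

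In the full 250 bases before the RefSeq start, Egln1 held 2 cores, 126 and 68 bases before it, Egln3 held 1, 229 bases before, and the Egln2 promoter shown held 4, at 151, 137, 48 and 34. Overlapping matches on the 2 strands were counted as 1 place. Egln1 had the highest GC content of the members' promoters, 86.0%, with 51 CpG dinucleotides, where the medians over promoters of tested genes were 59.2% and 14. A second promoter listed for Egln2, at chr7:27165729-27165978, held 1 core, 116 bases before its start, and 4 CpG dinucleotides. Of 10 promoters listed in all, which include Egln3 and both of Egln2 but none for Epas1, 7 held a core and 4 held 2 or more. Among all 32851 promoters 38.6% held a core and 13.5% held 2 or more, and among those of tested genes 53.4% and 21.8%. A core is a match of letters and not a measured binding site.

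Hif3a, the other member lower in NO than in DM, held 2 cores, 230 and 186 bases before its start, at chr7:17062428-17062677 on the minus strand of the same build.
Hif3a: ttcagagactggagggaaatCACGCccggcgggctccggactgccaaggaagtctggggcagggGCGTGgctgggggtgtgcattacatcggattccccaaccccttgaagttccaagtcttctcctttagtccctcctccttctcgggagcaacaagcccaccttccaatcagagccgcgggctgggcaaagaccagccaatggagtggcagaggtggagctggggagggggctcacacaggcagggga

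Egln1 (PHD2), the main prolyl hydroxylase in most cells, lies at chr8:124908587-124949324 on the minus strand. The normalised count of Egln1 was 1803, 1440 and 1334 for GS, 1082, 1035 and 1224 for DM, and 360, 492 and 449 for NO. The 3 media did not overlap, and the NO values were the lowest. Egln1 was 3.51-fold lower in NO than in GS (-1.81 ± 0.16, adjusted p = 0.000235 by limma) and 2.58-fold lower in NO than in DM (-1.37 ± 0.16, adjusted p = 0.00178). DM against GS gave -0.45 ± 0.16 (95% interval -0.80 to -0.09), which did not pass after adjustment (adjusted p = 0.145). Across 18 alternatives the NO and DM difference lay between -1.46 and -1.24, with adjusted p from 0.000563 to 0.0154.

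Egln3 (PHD3), a hydroxylase whose RNA is known to vary widely with oxygen, lies at chr12:54178981-54203860 on the minus strand. GS samples had 321, 212 and 234 normalised counts of Egln3, DM samples 630, 529 and 649, and NO samples 64, 95 and 71. DM was above and NO below every other sample, and the NO values rested on an estimated 91, 74 and 54 reads. As a description, the log2 fold change was 1.25 ± 0.21 in DM against GS, -1.72 ± 0.21 in NO against GS and -2.97 ± 0.21 in NO against DM. In linear terms it was 2.38-fold higher, 3.30-fold lower and 7.85-fold lower.

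Egln2 (PHD1) lies at chr7:27158658-27166802 on the minus strand. Normalised counts for GS were 1036, 1242 and 814, those for DM 1036, 970 and 1391, and those for NO 650, 805 and 964. GS overlapped both other media, and NO lay below DM in every sample, by 6 normalised counts at the nearest pair. NO against DM gave -0.49 (95% interval -0.94 to -0.04, adjusted p = 0.126 by limma), NO against GS -0.35 (adjusted p = 0.244) and DM against GS 0.14 (adjusted p = 0.764).

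Hif1an, the asparaginyl hydroxylase, lies at chr19:44562850-44576274 on the plus strand and had the smallest standard error of the members, 0.13. GS samples held 1710, 2033 and 1770 normalised counts, DM samples 2341, 1936 and 1961, and NO samples 2057, 1918 and 1826. The media overlapped throughout. The 95% intervals of the log2 fold change were -0.11 to 0.46 in DM against GS (adjusted p = 0.504 by limma), -0.21 to 0.36 in NO against GS (adjusted p = 0.724) and -0.39 to 0.19 in NO against DM (adjusted p = 0.641).

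Per kb, the 3 Egln genes together stood at 889 ± 125 (SD, n = 3) normalised counts in GS and 941 ± 127 in DM but at 437 ± 72.5 with the donor, and no NO sample reached the lowest GS or DM sample. Egln1 made up 47.8% ± 3.88 of the sum in GS, 33.1% ± 1.53 in DM and 27.7% ± 2.31 in NO. Egln3 made up 10.8% ± 1.93 in GS, 24.2% ± 1.78 in DM and 6.63% ± 1.19 in NO. Egln2 held 41.4% ± 5.81 in GS, 42.8% ± 2.79 in DM and 65.7% ± 3.50 in NO. It was the largest part in all 3 samples of both DM and NO, and in GS replicate 2. These shares were not tested.

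Ordered by level per kb in GS, Egln1, Hif1a, Arnt, Egln2 and Vhl came first, from 425 down to 351 on average, and neighbours among them overlapped. Hif1an, Egln3, Epas1, Hif3a and Arnt2 followed, each separate from the one before, down to 15.0. In DM, Arnt was first at 479, and the next 7 members, down to Egln3 at 226, overlapped their neighbours. In NO, Hif1a was first at 378 and Egln1 was in place 7, at 121. Egln3, Arnt2 and Hif3a, at 28.8, 23.7 and 23.2, overlapped at the bottom. The first places depend on the length used. With the longest transcript, Arnt was first in all 3 media and Egln1 was in place 4 in GS and place 7 in NO.

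Within NO, the samples were not ordered alike for all members. Egln1 and Egln3 were lowest in replicate 1, the NO sample nearest the other media on the first principal component. Hif3a and Vhl were lowest, and Arnt2 highest, in replicate 2, the farthest.

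Tested protein-coding genes beside the members were compared to show whether the differences were shared along the chromosome. Sprtn, 2.4 kb from Egln1, had a log2 fold change of 0.28 in NO against DM (adjusted p = 0.342 by limma), and Tsnax on the other side 0.54 (adjusted p = 0.0540). Around Egln3 the nearest tested protein-coding genes were Sptssa at 441.5 kb, with -0.47 (adjusted p = 0.145), and Arhgap5 at 1607 kb, with -0.13 (adjusted p = 0.811). Ppp5c, 3.6 kb from Hif3a, had 0.04 (adjusted p = 0.885). Prkce, 95.8 kb from Epas1, was higher in NO than in DM, by 1.57 (adjusted p = 0.00728), where Epas1 had -0.63. Rhoq, 129.7 kb from Epas1 on the other side, had 0.20 there (adjusted p = 0.540). In DM against GS, the largest difference of Epas1, Prkce had -0.035 (adjusted p = 0.968 by limma) and Rhoq -0.30 (adjusted p = 0.464). In NO against GS, where Epas1 was higher, Prkce was also higher, by 1.53 (adjusted p = 0.00440 by limma). Rhoq had -0.10 in NO against GS (adjusted p = 0.777). In NO against GS Sptssa, like Egln3, was lower, at -0.70 (adjusted p = 0.0333), under 2-fold. The NO and GS values of Sprtn and Tsnax were 0.27 (adjusted p = 0.334) and 0.43 (adjusted p = 0.0891), and Ppp5c stood at 0.13 (adjusted p = 0.606).

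**Figure D4:**
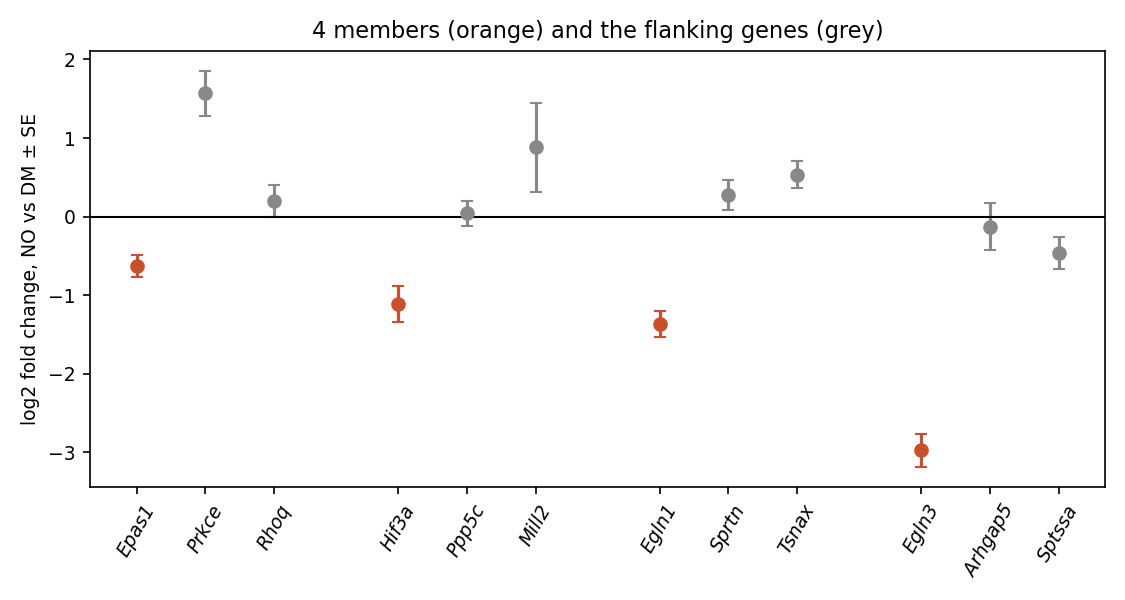
Log2 fold change in NO against DM with its standard error (vertical axis) for Epas1, Hif3a, Egln1 and Egln3 (orange) and the nearest tested protein-coding gene on each side (grey). The members lay between -2.97 and -0.63, and the genes beside them between -0.47 and 1.57.

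The genes whose profiles over the 9 samples were most like a member were found by the root mean square difference of centred log2 values. For Epas1 they were Pou3f1, Rarg, Pxdn, Foxp1 and Adamtsl1, at 0.17 to 0.20. For Hif3a they were Ptch1, Tgif2, Gnl1, Shmt2 and Yars, at 0.10 to 0.15. For Egln1 they were Cdc42ep2 at 0.15 and Sh2d5, Ndrg1, Hk2 and Prelid2 at 0.29 to 0.32. For Egln3 they were Nxph4, Lef1, Slc16a3, Igfbp4 and Pgm2, at 0.35 to 0.52. Nxph4 and Lef1 were low, with at most 82 and 52 normalised counts in any sample.

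Other genes of the pathway were counted in lists written from textbook knowledge, with 61 of 68 genes tested. Earlier results of these data were known when the lists were written, which limits their counts and p-values. In DM against GS 1 was higher and 1 lower, in NO against GS 3 and 1, and in NO against DM 3 and 2. The shares of all tested genes were, in the same order, 2.94% and 1.27%, 10.1% and 1.64%, and 6.78% and 1.77%. None of the 16 genes for HIF stability (the VHL ligase subunits, Hsp90 and other alpha-binding factors) was called by limma in the 3 comparisons, and at adjusted p alone 0, 3 and 2 of them passed. At that threshold 6.69%, 20.0% and 14.2% of all genes passed. The list's median log2 fold change was -0.03 in DM against GS, -0.36 in NO against GS and -0.17 in NO against DM. The medians over all tested genes were -7e-04, -0.016 and 0.001. The 3 that passed at adjusted p alone in NO against GS were all lower, namely Cul2 (-0.88), Hsp90ab1 (-0.61) and Cops5 (-0.55).

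Among the coactivators, the CITED genes, whose products compete with HIF alpha for CBP and p300, were the ones called. Ncoa1 was higher in NO than in GS by 0.90 (adjusted p = 0.00858 by limma), under 2-fold. Cited2 was higher in DM than in GS (1.10, adjusted p = 0.0403 by limma) and Cited1 was lower (-1.65, adjusted p = 0.0195). The call of Cited2 was lost in 10 of 18 alternatives (adjusted p up to 0.146), namely the replicate block, no minimum mean, no trend, quantile normalisation and leaving out any GS or DM sample. That of Cited1 was lost in 4, without GS replicate 1 or 2 or DM replicate 1 or 2 (adjusted p up to 0.0974). Cited4 was higher in NO, from a mean of 8.33 normalised counts in DM to 66.7 (2.58, adjusted p = 0.0123). Of the other bHLH-PAS genes, the circadian factors Arntl2 and Npas2 were higher in NO than in DM, by 3.05 (adjusted p = 0.00231) and 1.68 (adjusted p = 0.0156). Against GS, NO was higher for Cited4 by 3.14 (adjusted p = 0.00288) and for Arntl2 by 2.64 (adjusted p = 0.00167). NO replicates 1 to 3 held 23, 123 and 54 normalised counts of Cited4 and 98, 296 and 165 of Arntl2. The call of Npas2 was lost in 2 of 18 alternatives, without NO replicate 2 (adjusted p = 0.0502 by limma) and with a minimum mean of 50. That minimum mean left both Npas2 and Cited4 untested.

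Of 31 other 2-oxoglutarate oxygenases tested, enzymes that share the cofactors of the EGLN proteins, 0 were higher and 2 lower in NO than in DM. Over all tested genes 6.78% were higher and 1.77% lower. The 2 oxygenases were P4ha1, a collagen prolyl hydroxylase (-1.09, adjusted p = 0.00288 by limma), and Kdm4b, a histone demethylase (-1.02, adjusted p = 0.00287). Values of hypoxia-response genes had been seen before the lists were written, and oxygenases of this list may have been among them. Their p-values here are not independent of that choice. Kdm4b came under 2-fold in 4 of 18 alternatives and P4ha1 in 1, without DM replicate 1 (-0.96). In NO against GS, P4ha1 was lower (-1.07, adjusted p = 0.00134) and Tet3, a methylcytosine oxidase, was higher (1.15, adjusted p = 0.0123). Each of these 2 calls was lost in 2 of 18 alternatives. Tet3 was at 0.80 without NO replicate 2, and its adjusted p was 0.0586 by limma without GS replicate 3. P4ha1 came just under 2-fold with equal totals (-0.96) and without NO replicate 1 (-0.998). In DM against GS none was called by limma, and 4 passed at adjusted p alone, against 6.69% of all genes.

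A panel of 30 known HIF target genes was set beside the members as a description with no p-values, since values of hypoxia-response genes in these samples had been seen before the family was proposed. The thresholds used above include the adjusted p, so the counts here describe genes whose values had been seen and are no test. In DM against GS 0 of the 30 passed them, where 2.94% of all tested genes were higher and 1.27% lower. At adjusted p alone 2 passed, against 6.69% of all genes, and the median log2 fold change was 0.15. In NO against DM 1 was past the thresholds upward and 14 downward, where the shares over all genes were 6.78% and 1.77%. The median was -0.97. In NO against GS 2 were past them upward and 15 downward, beside 10.1% and 1.64% of all genes, with a median of -1.10. The mitophagy gene Bnip3 had a mean of 1764 normalised counts in DM and 92.3 with the donor (log2 fold change -4.25 ± 0.18 SE). The lactate transporter gene Slc16a3 stood at -3.28 ± 0.18, and the glycolytic genes Aldoc and Tpi1 at -2.39 ± 0.28 and -2.00 ± 0.19. Upward, the glycolysis regulator Pfkfb4 stood at 1.24 ± 0.30 in NO against DM and 1.20 ± 0.30 in NO against GS, and the carbonic anhydrase gene Car12 at 2.11 ± 0.53 in NO against GS. NO replicates 1 to 3 held 220, 572 and 284 normalised counts of Pfkfb4 and 102, 639 and 158 of Car12. Pfkfb4 and Car12 were named after their values were seen.

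**Figure D5:**
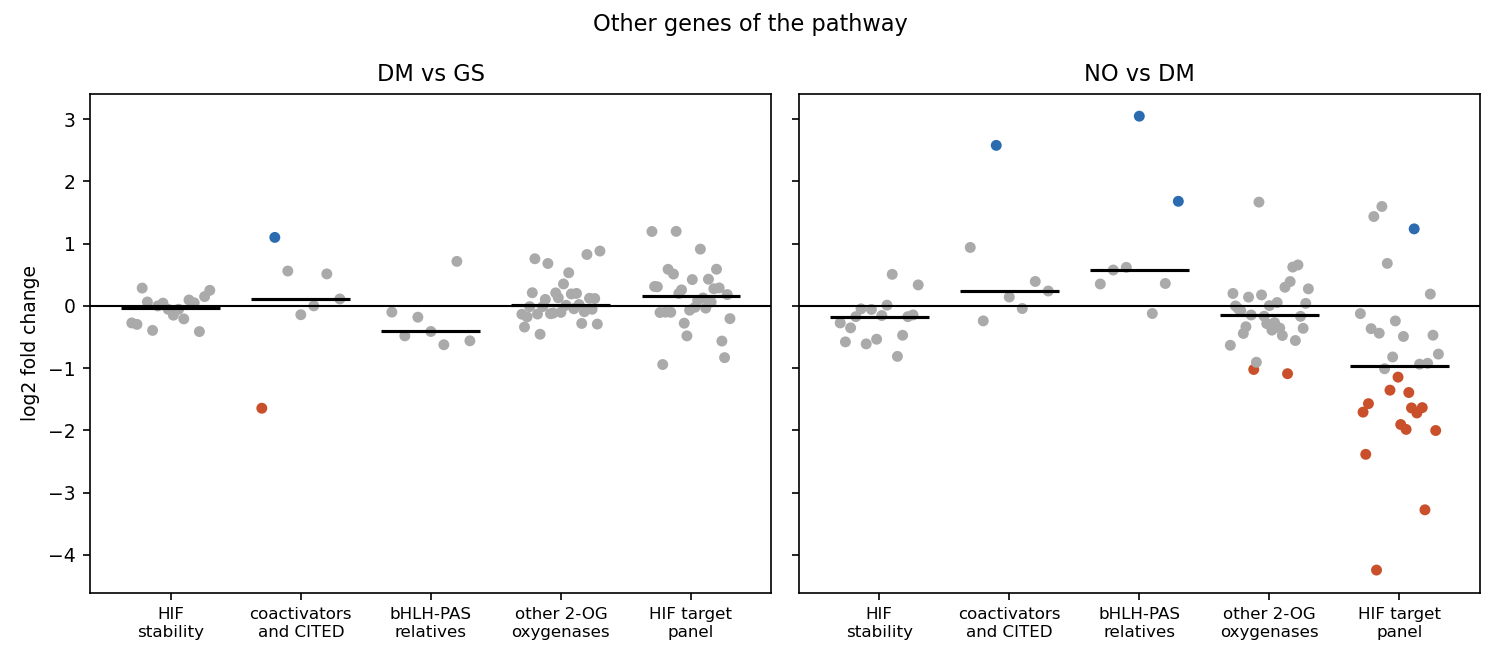
Log2 fold change (vertical axis) of the tested genes of 5 lists in DM against GS (left) and NO against DM (right); each point is a gene, blue if higher, orange if lower and grey if not called, and the black line is the list's median. In NO against DM 14 of 30 HIF target genes, shown as a description and not a test, were past the thresholds downward, with a median of -0.97. In the same comparison 0 of 16 HIF stability genes were called, and 1.77% of all tested genes were lower.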

How the data were processed

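Ribosome-depleted total RNA was sequenced on an Ion Torrent Proton. Per the study's methods and the submitters' processing notes, the authors aligned reads with STAR 2.4.0a to GRCm38, counted them in exons with featureCounts 1.4.5-p1 without ambiguous or multimapped reads, and normalised with DESeq2. Use of strand was not given in the sources used here. The deposited scores are these normalised counts rounded to whole numbers, so no count model was fitted. limma 3.58.1 (R 4.3.3) was run on log2(value + 1) with the 3 media as groups, a mean-variance trend and a minimum mean of 5, and tested on simulated data. Adjusted p-values cover all 18156 tested genes. Each sample was a dish of its own. The methods describe values in general as coming from independent experiments, but neither they nor the labels say so of these libraries, so the p-values may measure technical spread only.

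The members and lists were chosen with earlier results of these data known. All 10 members were named, and of other lists at most 4 called genes per comparison, by size of change, beside Pfkfb4 and Car12, named after their values were seen. For members called in any comparison and Egln3, the 5 nearest profiles were named, without clone or model names. Exon lengths were from GENCODE on GRCm38. Reads per sample were estimated from the spacing of low values. Deviations from the group means correlated between NO and DM samples of the same number in all 3 pairs (0.159 to 0.296). Same-number samples of the other comparisons did not (-0.232 to 0.05). Between NO and DM samples of different number the values lay between -0.223 and -0.025. Yet DM replicate 3 with GS replicate 1 gave 0.22, and DM replicate 1 with GS replicate 3 gave 0.219. Correlations of this size therefore do not establish that the numbers mark pairs. The main fit was unpaired, and the replicate block covered all 3 media at once, so pairing of NO and DM alone was not fitted. Alternatives covered the filter, pseudocount, trend, scaling, replicate block, thresholds, exon length and leaving out each sample. The order of levels with the longest transcript was added after seeing the data.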

Additional observations from a re-analysis of the deposited data

How the results depend on the processing

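Over 27 fold changes of the 9 tested members and 486 alternative values, 459 kept their direction and their side of adjusted p = 0.05, 15 lost that p, 4 gained it and 8 changed sign, all 8 in uncalled differences of Hif1a and Egln2. When a sample was left out, Egln2 in DM against GS ranged from -0.0207 (without GS replicate 3; -0.0187 without DM replicate 3) to 0.2837, Hif1a in DM against GS from -0.3296 to 0.0315 (without DM replicate 3), in NO against GS from -0.1219 to 0.0762 (without GS replicate 3; 0.0388 without NO replicate 3) and in NO against DM from -0.0643 (without DM replicate 3) to 0.2968. Hif1a in NO against GS was 0.0799 with quantile normalisation and 0.077 with equal totals. The cause was not tested. Of the called members, Hif3a came under 2-fold in 1 of 18 alternatives, without NO replicate 2, and Egln1 and Epas1 in 0. The replicate block, which pairs samples by number, changed no member call, and gave 1 pathway gene in DM against GS where the unpaired fit gave 2. That count was also 1 with no minimum mean, with no mean-variance trend and with quantile normalisation, and 0 to 1 when a sample of either medium was left out. With no minimum fold it was 6, and the other pathway counts were 13 in NO against GS and 10 in NO against DM, the members in NO against DM 4 and the HIF targets in DM against GS 2. With a minimum log2 fold change of 2, members were 0 in each comparison, pathway genes 0 in DM against GS and 2 in each of the others, and HIF targets 4 in NO against GS and 4 in NO against DM. A minimum mean of 50 left 3 pathway genes in NO against DM. Members called in NO against DM were 1 to 2 when a sample was left out, 1 being without NO replicate 2. With the longest transcript as length, Egln1 shares were 42.13%, 29.01% and 22.78% in GS, DM and NO, Egln2 shares 48.31%, 49.81% and 71.76%, the Egln3 share in DM 21.19%, Hif1a and Epas1 shares in NO 71.39% and 24.95%, Arnt shares 97.43%, 97.68% and 95.28%, and Arnt2 shares 2.57%, 2.32% and 4.72%. In the order of levels, added after seeing the data, that length put Egln1 in place 4, Hif1a in place 3 and Arnt in place 1 in GS, Hif1a in place 2 and Arnt in place 1 in NO, and left 0 samples with Epas1 above Hif1a. With quantile normalisation, higher genes among all those called went from 86.0% to 67.5% in NO against GS and from 79.3% to 65.1% in NO against DM, and put the median log2 fold change of all genes at -0.11 and -0.08. With 3 samples per medium, small differences such as those of Arnt and Vhl are near the limit of what was detectable.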
